A study of Homo sapiens with 3 samples.

Results

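Protocadherins are cell-surface adhesion proteins of the cadherin superfamily, and their genes were taken as every gene on the array whose name begins with PCDH. There were 66 such genes of 43316 genes measured. They comprised 15 alpha (PCDHA), 15 beta (PCDHB) and 16 gamma (PCDHG) genes of the clusters on chromosome arm 5q, 13 non-clustered genes, 3 beta pseudogenes, 1 gamma pseudogene and 3 antisense RNAs of PCDH9. mRNA was measured in 3 cultures of 1 origin. H1975 is a human non-small cell lung cancer line with mutated EGFR that is sensitive to osimertinib, an EGFR inhibitor. OR1 and OR2 are resistant lines selected independently from different H1975 flasks, with osimertinib raised stepwise up to 2 µmol/L over 4 months. All were kept in the same serum-containing medium, each line was measured on 1 array, and the 3 arrays shared 1 slide. Each resistant line is the outcome of a single selection, so what belongs to the drug, to the selection or to the culture cannot be told apart.

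In the alpha and gamma clusters, each variable exon has its own promoter and is spliced to a set of constant exons shared by the whole cluster, while each beta gene is a single coding exon. Neurons choose among these promoters, so that each cell displays its own set of protocadherins, and the choice involves DNA methylation and the binding of CTCF and cohesin. The non-clustered genes are scattered over the genome and include the delta protocadherins, which bind cytoplasmic partners through conserved stretches of their tails. PCDH1 is the delta protocadherin known from airway epithelium.

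Signal is given as scaled intensity, the background-corrected brightness of a probe set so that the 75th percentile of each array is 100. It serves to compare a probe between lines and not a gene with another gene. A ratio of at least 2 to H1975 was called up-regulated and a ratio of at most 0.5 down-regulated. When the scanner software did not call a probe well above background in any of the lines compared, no ratio was taken, and when it called a single one of them, the ratio is a bound (at least, at most) against the lowest intensity well above background on that array, or the probe's own where that was higher. These lowest intensities were 7.98 for H1975, 8.26 for OR1 and 7.80 for OR2. The technical SD of a log2 ratio comes from the scanner software, had a median of 0.22 for the protocadherins in OR1 and 0.21 in OR2, and covers the measurement of a single RNA. There was no replicate, so no ratio of 1 array to another carries a p-value, precision is limited by the number of arrays, and a difference cannot be set against the spread between cultures.

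What a probe can tell depends on its letters, and the probes of 3 pairs of paralogs are shown because they share the longest runs among the 66 probes used. In each pair the run found in both is in capitals. The PCDHB2 probe lies at chr5:140476664-140476723 and the PCDHB13 probe at chr5:140595978-140596037, and they share a run of 23 bases. Past a mismatch right after that run, their letters match again for a further stretch. PCDHB8, at chr5:140559850-140559909, and PCDHB11, at chr5:140581576-140581635, share 14 bases. PCDHGA2, at chr5:140720840-140720899, and PCDHGA3, at chr5:140725938-140725997, share 24 bases, at the end of the former probe and the start of the latter. All are on the plus strand of hg19.
PCDHB2: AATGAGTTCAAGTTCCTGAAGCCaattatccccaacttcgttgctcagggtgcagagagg
PCDHB13: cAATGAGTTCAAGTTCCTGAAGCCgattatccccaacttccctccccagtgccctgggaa
PCDHB8: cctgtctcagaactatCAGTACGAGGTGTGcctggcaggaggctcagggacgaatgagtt
PCDHB11: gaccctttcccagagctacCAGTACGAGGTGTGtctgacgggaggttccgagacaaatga
PCDHGA2: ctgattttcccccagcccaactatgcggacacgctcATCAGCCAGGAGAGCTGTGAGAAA
PCDHGA3: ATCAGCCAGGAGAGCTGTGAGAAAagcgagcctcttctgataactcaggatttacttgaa

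The design file listed RefSeq accessions of more than 1 protocadherin symbol for 8 of the 66 probes used, namely 1 alpha, 1 beta, 5 gamma and 1 non-clustered probe. For these the signal of paralogs cannot be told apart. PCDHB2 was listed with PCDHB3, PCDHGB4 with PCDHGB5, PCDHGA12 with PCDHGA10, PCDHGA2 with PCDHGA1, PCDHGA11 and PCDHGA3, and PCDHGA3 with PCDHGA4 and PCDHGA6.

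Of the probes used, 14 of 15 alpha and 15 of 16 gamma probes are described in the files as transcript variant 2, which ends in or just beyond the variable exon and lacks the constant exons. A probe in the variable exon can bind full-length transcripts too, and whether a probe lies in coding sequence, UTR or intron was not read here. The letters GTNAGT, as at the start of an intron, were looked for after the probe sequences had been seen. They stand in the probe letters of 7 of 15 alpha probes (46.7%), 2 of 16 gamma probes and 2 of 15 beta probes, against 3.84% of all 58201 probes with a sequence. The match is a description of the letters. For PCDHA3, in the probe at chr5:140183149-140183208, and PCDHA12, in the probe at chr5:140257377-140257436, 30 bases around them are shown on the plus strand of hg19, with the match in capitals.
PCDHA3: ctctcagccaaaGTGAGTaatttttattta
PCDHA12: ttaaatcctcccagtgaaGTAAGTtattaa

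By contrast, the brightest probes of PCDHA11 (chr5:140390896-140390955) and PCDHGA8 (chr5:140892394-140892453) are described as transcript variant 1 and lie at the far ends of the alpha and gamma clusters. Each lists accessions of 4 protocadherin symbols. They stand for the transcripts that reach the constant exons rather than for the named gene, and their middle 30 bases are shown for that reason, on the plus strand.
PCDHA11: tgatgttacctgaaatcaatctcccatatg
PCDHGA8: ataagcgcttctcttcgcatagtcacgtag

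Of the 66 protocadherins, 39 (59.1%) were well above background in at least 1 line, compared with 51.8% of all genes, and 31 were so in all 3. The number was 33 for H1975, 38 for OR1 and 35 for OR2. The clustered genes were detected more widely than the non-clustered genes, at 9 of 15 alpha, 11 of 15 beta and 14 of 16 gamma genes against 4 of 13. Among the delta-1 genes PCDH1, PCDH7 and PCDH11X were detected, as was PCDH11Y by a probe that also lists PCDH11X, and PCDH9 was not. The delta-2 genes PCDH8, PCDH10, PCDH17, PCDH18 and PCDH19 were all below the call in each line, as were PCDH12, PCDH15 and PCDH20. Of the pseudogenes PCDHB18P was detected, and of the antisense RNAs none. The 27 members not well above background in any line had scaled intensities between 1.59 and 10.2.

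OR1 had 17 up-regulated protocadherins of the 39 with a ratio (43.6%), while 9.17% of all genes tested were up-regulated, and 3 down-regulated ones against 9.58% of all genes. OR2 had 5 up-regulated of 37 (13.5%) against 7.72%, and 3 down-regulated against 8.7%. The down-regulated share was close to or under that of all genes in either line. In both lines 5 were up-regulated, against 5.09% of all genes, namely PCDHB10, PCDHB15, PCDHGA3, PCDHGB2 and PCDH7. PCDH1, PCDHA3 and PCDHA6 were down-regulated in both, 3 of 39, against 6.32% of all genes. OR1 and OR2 share the H1975 array, so a high or low value there enters both ratios.

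**Figure D1:**
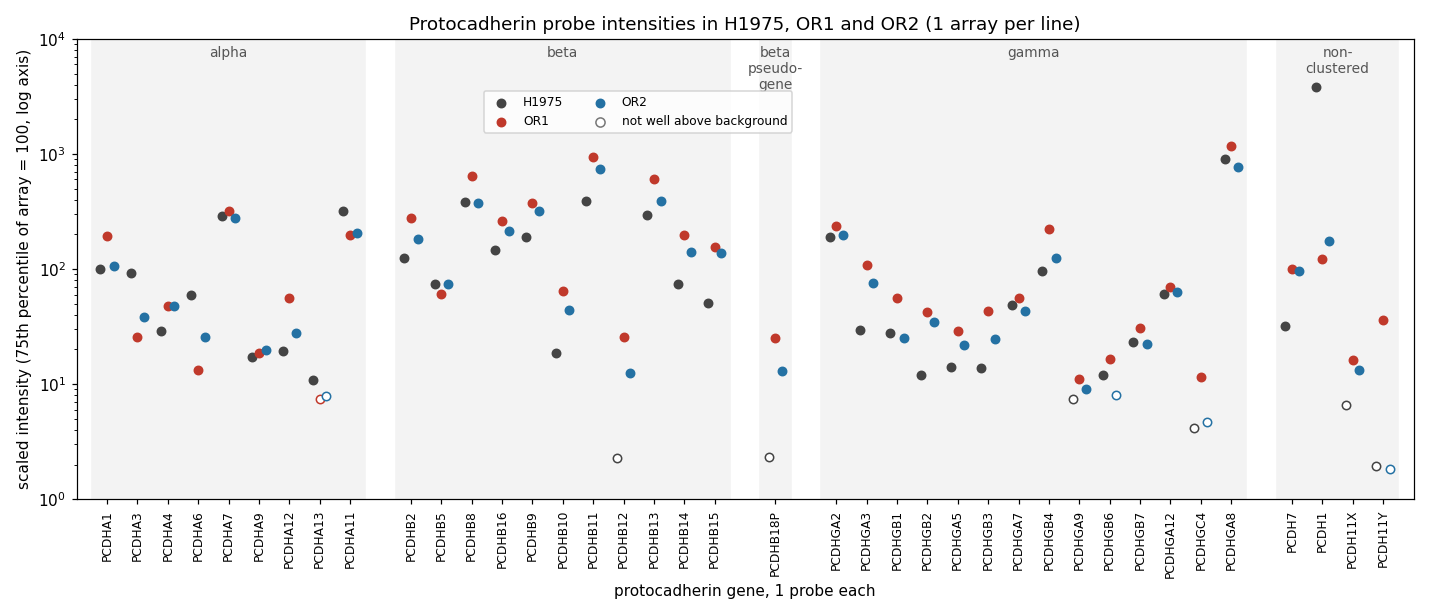
Scaled intensity (log axis, 75th percentile of the array = 100) of the 39 protocadherins detected in at least 1 line, 1 probe per gene and 1 array per line, with open circles where the probe was not well above background. PCDH1 has 3797 for H1975 against 123 for OR1 and 177 for OR2, and most beta genes are brightest in OR1.

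The non-clustered genes held the largest change among the detected protocadherins and moved both ways. PCDH1 (chr5:141242218-141242277, minus strand of hg19) had a scaled intensity of 3797 for H1975, 123 for OR1 and 177 for OR2. The resistant lines thus kept 0.033 and 0.047 of the H1975 level, where the technical SD (log2) was 0.20 for OR1 and 0.21 for OR2. The other PCDH1 probe was well above background in H1975 alone, at 17.5, and there OR1 kept at most 0.47 and OR2 at most 0.45 of it. The middle 30 bases of the brighter probe are shown, on the strand of the gene.
PCDH1: gtcccacatgcccttgaccctgacaataaa

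PCDH7, a delta-1 protocadherin that binds the phosphatase PPP1CA and the protein SET, was higher in both resistant lines by nearly the same ratio. Its scaled intensity was 32.0 for H1975, 101 for OR1 and 96.5 for OR2, with ratios of 3.16 and 3.02 (technical SD 0.23 on the log2 scale in either line), which became 1.95 and 1.84 with another background correction, normexp. Its partner PPP1CA had ratios of 0.67 and 0.47, and SET had 0.92 and 0.93. The PCDH7 probe lies at chr4:30726159-30726218, plus strand of hg19, and its sequence is shown since PCDH7 was the non-clustered gene up-regulated in both lines.
PCDH7: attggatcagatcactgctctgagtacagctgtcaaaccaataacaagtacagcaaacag

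PCDH11X was below the call in H1975, at 6.54, with 16.2 for OR1 and 13.2 for OR2 and ratios of at least 2.03 and at least 1.66. PCDH11Y, by the probe used, had 1.96 for H1975, 36.0 for OR1 and 1.83 for OR2, so OR1 was at least 4.51-fold higher and OR2 has no ratio. That probe lists PCDH11X accessions as well, so the X and Y copies cannot be told apart by it. The remaining 2 probes of PCDH11Y, which list no PCDH11X accession, were not well above background in any line. Counts and medians that include PCDH11Y may therefore count PCDH11X transcripts again.

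The beta genes were higher in OR1 than in H1975 in 10 of 11 cases and in OR2 in 9 of 11, compared with 52.3% and 46.4% of all genes. Up-regulated were 7 in OR1 (2 with spike-in scaling) and 2 in OR2, against the shares of 9.17% and 7.72% of all genes, and none was down-regulated in either line. PCDHB10 had a scaled intensity of 18.6 for H1975, 63.8 for OR1 and 44.4 for OR2, a ratio of 3.43 and 2.38 (technical SD 0.26 on the log2 scale in OR2). PCDHB15 had 51.2, 155 and 139, with ratios of 3.02 and 2.72 (technical SD 0.21). These were the beta genes past the ratio in both lines, and in each the order from high to low was OR1, OR2, H1975. For PCDHB15 the log2 ratio of OR1 to OR2 was 0.15, less than its technical SD of 0.21. With spike-in scaling the ratio to H1975 was higher in OR2 for both, at 2.50 against 2.26 for PCDHB10 and 2.85 against 1.99 for PCDHB15. With normexp PCDHB10 lost the call, at 1.83 and 1.44, and PCDHB15 kept it, at 2.14 and 2.00.

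The order OR1, OR2, H1975 was also found in most of the other beta genes. After spike-in scaling, however, 2 of 11 beta genes were higher in OR1 than in OR2. PCDHB14 had 74.9 for H1975, 199 for OR1 and 142 for OR2, with ratios of 2.66 and 1.89. PCDHB11 had 388, 935 and 737, with ratios of 2.41 and 1.90. Both were up-regulated in OR1 and stayed under 2 in OR2. PCDHB2 had 125, 277 and 183, with ratios of 2.22 and 1.47. Its other probe, which lists PCDHB2 alone, had 83.2, 188 and 102, with ratios of 2.26 and 1.23. PCDHB13 had 295, 602 and 390, with ratios of 2.04 and 1.32. The brighter PCDHB2 probe and the PCDHB13 probe share the run shown above. Whether either of them also binds the transcript of the other gene was not tested. PCDHB9 had 190, 376 and 322, with ratios of 1.98 and 1.70. PCDHB16 had 147, 261 and 215, with ratios of 1.77 and 1.46. Neither reached 2.

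PCDHB12 was at 2.26 in H1975, not well above background, with 25.6 for OR1 and 12.4 for OR2 and ratios of at least 3.205 and at least 1.55. Much alike, the pseudogene PCDHB18P had 2.32, 25.4 and 12.98, with ratios of at least 3.18 and at least 1.63. These were the clustered members below the call in H1975 and up-regulated in OR1. PCDHB8 was higher in OR1 alone, with 381 for H1975, 649 for OR1 and 377 for OR2 and ratios of 1.70 and 0.99. PCDHB5 was the beta gene without an increase, with 73.9, 60.3 and 73.7 and ratios of 0.82 and 0.997.

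All 14 gamma genes with a ratio were higher in OR1 than in H1975, compared with 52.3% of all genes. In OR2 8 of 13 were higher, compared with 46.4%. When arrays were scaled on spike-in RNA, 6 of the 12 left with a ratio were higher in OR1, against 20.0% of all genes. In OR1 5 gamma genes were up-regulated and in OR2 2, against 9.17% and 7.72% of all genes. PCDHGA3 had a scaled intensity of 29.7 for H1975, 108 for OR1 and 75.8 for OR2, with ratios of 3.62 and 2.55. PCDHGB2 had 11.9, 42.1 and 34.6, with ratios of 3.53 and 2.90 (technical SD 0.30 on the log2 scale in either line). By the probes used, these were the gamma genes up-regulated in both resistant lines. With normexp PCDHGA3 had 2.06 and 1.65 and PCDHGB2 1.70 and 1.41, so neither was called in both.

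PCDHGB3 had 13.8 for H1975, 43.3 for OR1 and 24.8 for OR2, with ratios of 3.13 and 1.79. PCDHGB4 had 95.9, 221 and 124, with ratios of 2.30 and 1.30. PCDHGA5 had 14.2, 28.7 and 21.7, with ratios of 2.03 and 1.53. By the probes used, these 3 passed 2 in OR1 and not in OR2. The other PCDHGA5 probe, with 10.3, 27.4 and 24.25, had ratios of 2.65 and 2.35 and so passed 2 in both lines. PCDHGB1 fell just short in OR1, with 27.9, 55.6 and 24.9 and ratios of 1.995 and 0.89. Its other probe gave 2.94 and 1.38.

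The remaining gamma genes stayed between 0.5 and 2 in both lines by the probe used. The constant-end probe named PCDHGA8, which stands for many gamma transcripts, had 907 for H1975, 1164 for OR1 and 775 for OR2, with ratios of 1.28 and 0.85. PCDHGA2 had 191, 237 and 199, with ratios of 1.24 and 1.04, and PCDHGA12 had 60.7, 70.1 and 63.6, with ratios of 1.15 and 1.05. Both were within 2 technical SD of H1975 in either line. PCDHGA7 had 48.8, 56.4 and 43.2, with ratios of 1.16 and 0.89, but its other detected probe, which also lists PCDHGA8, had 21.5, 39.3 and 40.5, with 1.82 and 1.88, so the direction in OR2 turned with the probe. PCDHGB7 had 23.4, 30.6 and 22.3, with ratios of 1.31 and 0.95.
The dimmest gamma genes lay at the edge of detection. PCDHGB6 had 12.1 for H1975, 16.5 for OR1 and 7.98 for OR2, where it was not well above background, with a ratio of 1.37 and at most 0.66. PCDHGA9 had 7.46, 11.03 and 9.11, with ratios of at least 1.38 and at least 1.14. PCDHGC4 was well above background in OR1 alone, with 4.13, 11.6 and 4.65 and a ratio of at least 1.46 in OR1.

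The alpha genes moved in opposite directions. PCDHA6 had a scaled intensity of 59.8 for H1975, 13.2 for OR1 and 25.7 for OR2, with ratios of 0.22 and 0.43 (technical SD 0.28 on the log2 scale in OR1). PCDHA3 had 92.7, 25.6 and 38.6, with ratios of 0.28 and 0.42. These were the clustered genes down-regulated in both lines, and both were lowest in OR1. With normexp neither kept the call, at 0.55 and 0.63 for PCDHA6 and 0.54 and 0.60 for PCDHA3.

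PCDHA12 was up-regulated in OR1, with 19.5 for H1975, 56.6 for OR1 and 27.7 for OR2 and ratios of 2.89 and 1.42. PCDHA1 had 101, 193 and 107.1, with ratios of 1.91 and 1.06. PCDHA4 had 28.9 in H1975 and 48.2 in either resistant line, a ratio of 1.66 in both. PCDHA7 and PCDHA9 differed from H1975 by less than 1 technical SD in each line. PCDHA7 had 290, 317 and 277, with ratios of 1.09 and 0.96. PCDHA9 had 17.1, 18.5 and 19.8, with ratios of 1.08 and 1.16. PCDHA13 was well above background in H1975 alone, with 10.9, 7.47 and 7.82 and ratios of at most 0.76 and at most 0.72.

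The constant-end probe named PCDHA11 had 319 for H1975, 199 for OR1 and 207 for OR2, with ratios of 0.62 and 0.65. The other PCDHA11 probe, which lies at its variable exon and lists no other symbol, went the opposite way, with 10.9, 31.8 and 17.4 and ratios of 2.92 and 1.60. Of 21 probes of members not used, 6 had a ratio in either line, and these fell on the same side of 1 as the probe used in 5 cases in OR1 and 3 in OR2. The choice of probe therefore sets the direction for some genes, such as PCDHA11.

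**Figure D2:**
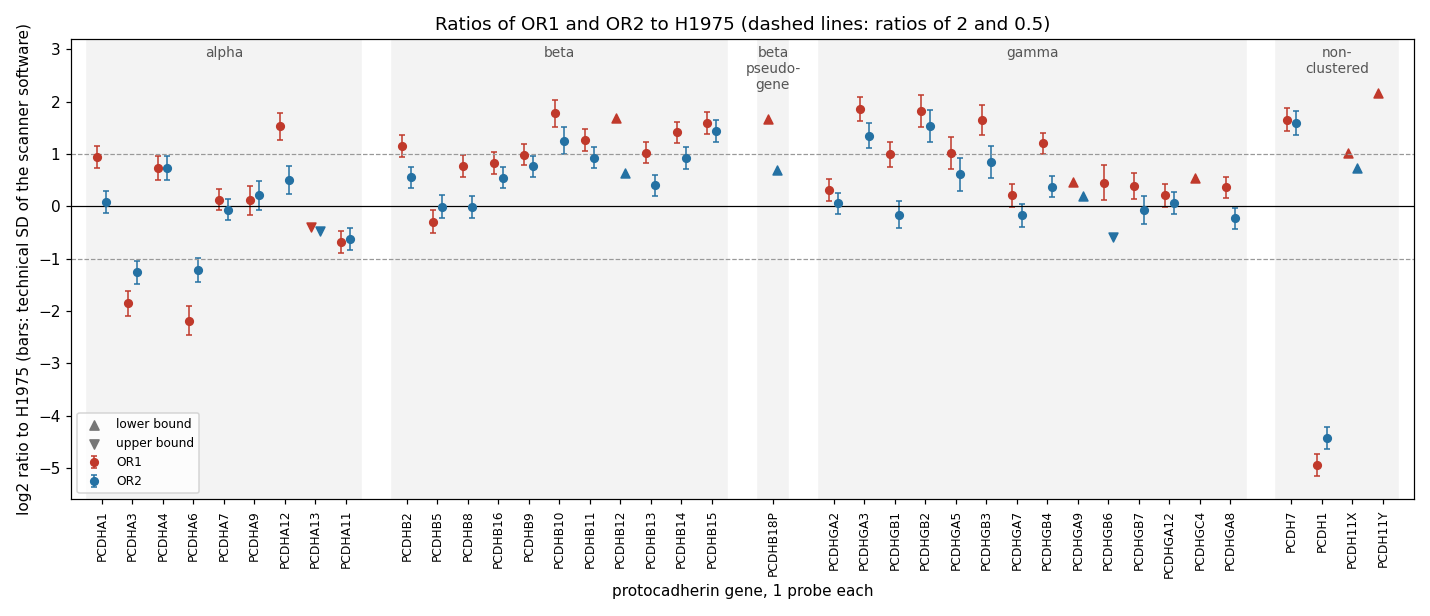
Log2 ratio of OR1 and OR2 to H1975 for the detected protocadherins, with the technical SD of the scanner software as bars, triangles for bounds and dashed lines at ratios of 2 and 0.5. PCDHA3, PCDHA6 and PCDH1 lie below the lower line in both resistant lines, and 7 of 11 beta genes lie above the upper line in OR1.

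Over the clustered genes the median log2 ratio came to 0.80 for OR1 (34 genes) and 0.21 for OR2 (33 genes), while over all genes it was 0.04 and -0.06. By subfamily it was 1.15 and 0.64 for beta, 0.51 and 0.07 for gamma and 0.11 and -0.07 for alpha. The non-clustered median of 1.34 in OR1 and 0.73 in OR2 rests on 4 and 3 genes. They include PCDH1 and, by bounds, PCDH11X and, in OR1, the probe named PCDH11Y. The sign of the median turned when detection on all 3 arrays was required, which left PCDH1 and PCDH7 (-1.64 and -1.42). With 1 array per line these medians describe the arrays and are no test of a difference between clustered and non-clustered genes. Of the members with a measured ratio, 23 of 32 differed from H1975 by more than 2 technical SD in OR1, 19 of them upward, and 16 of 31 in OR2, 12 of them upward. Of all genes with a measured ratio, 45.6% did so in OR1 (23.6% upward) and 46.0% in OR2 (20.8% upward, 25.2% downward). The total past the technical error in OR2 was thus near that of the array as a whole. Its upward part, 12 of 31, was a larger share than that of all genes, and its downward part, 4 of 31, a smaller one.

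How far the clustered genes stood above H1975 in OR1 depended on how the arrays were scaled. Scaling on 7 spike-in probes, for RNA added in a known amount, moved the median of all genes in OR1 by -0.62 and in OR2 by 0.07. Under it the median in OR1 was 0.55 for beta, 0.12 for gamma and -0.49 for alpha, so the alpha sign turned. Without any scaling the alpha median in OR1 was -0.08. The beta median exceeded that of all genes by 1.11 in OR1 and 0.69 in OR2 on the log2 scale, a gap that a shift of the whole array leaves nearly as it is by construction, and by 0.82 and 0.53 with normexp background correction, which is no such shift. Scaling on spike-in RNA also lowered the up-regulated members in OR1 from 17 to 8, and normexp, with an offset of 50 that draws the ratios of dim probes toward 1, left 4 in OR1 and 1 in OR2. Of all genes, 771 were up-regulated in OR1 with spike-in scaling and 785 with normexp, in place of 2006. In OR2 normexp left 668 of all genes up-regulated, in place of 1675.

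**Figure D3:**
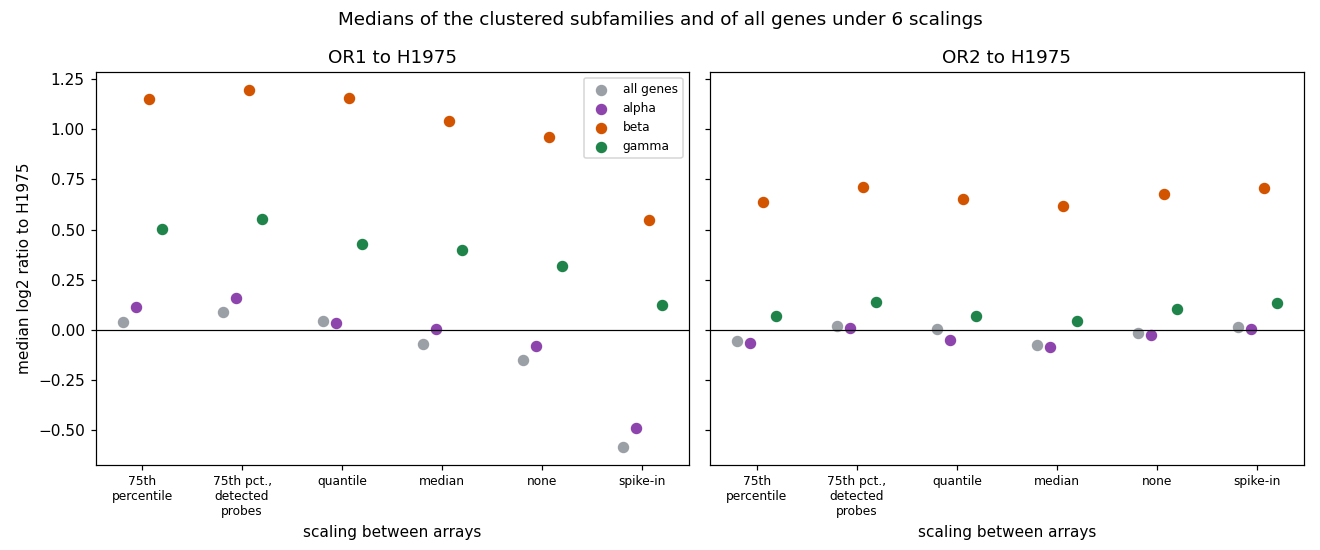
Median log2 ratio to H1975 of the alpha, beta and gamma genes and of all genes under 6 ways of scaling the arrays, OR1 on the left and OR2 on the right. Apart from quantile normalization the scalings shift all genes of an array alike, so the gaps of alpha and beta to all genes hardly move. The gap of gamma in OR1 went from 0.466 to 0.709 under spike-in scaling, where 12 gamma genes in place of 14 had a ratio. Spike-in scaling lowers each median of OR1 and hardly those of OR2.

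OR1 was set against OR2 directly as well. There 5 of 38 protocadherins were higher by a ratio of at least 2, against 2.89% of all genes, and none was lower, against 2.48%. PCDHA12 (2.04), PCDHB12 (2.06) and PCDHGB1 (2.23) had measured ratios, PCDHGB6 a ratio of at least 2.07 and PCDH11Y a ratio of at least 4.62. The ratio exceeded 1 in 28 of 33 clustered genes, including all 14 gamma and 10 of 11 beta genes, and in 56.5% of all genes. Both the direction and the calls depended on the scaling. After spike-in scaling 8 of 32 clustered genes and 8.51% of all genes exceeded 1. The clustered genes called higher in OR1 numbered 4 with the main scaling, 1 with quantile or median scaling and 0 with no scaling or spike-in scaling. Of all genes, 619 were so called with the main scaling, 542 with quantile, 499 with median, 389 with no scaling and 184 with spike-in scaling.

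A limma fit took OR1 and OR2 as 2 samples against the lone H1975 array, with 1 residual degree of freedom, and assumed that H1975 varies like the resistant lines. These lines come from separate selections and are no replicates of a culture, so its p-values rest on that assumption. At a Benjamini-Hochberg adjusted p under 0.05 no protocadherin was called higher, against 0.928% of all genes, and PCDH1 was called lower (log2 fold change -4.69, limma adjusted p = 0.0308), against 1.66% of all genes. The largest upward log2 fold changes among the members in the fit were 2.975 for PCDHB12 and 2.968 for PCDHB18P. Both rest on H1975 intensities not well above background (2.26 and 2.32), which entered the fit as measured. Elsewhere only bounds are given for these members. PCDH7, detected in all 3 lines, had 1.63.

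The clusters lie side by side on 5q, and the ratios were set along that stretch by the distance of each probe from the first PCDHA probe. The alpha probes span 0 to 223 kb, the beta probes 265 to 459 kb and the gamma probes 553 to 724 kb. TAF7, a subunit of the general transcription factor TFIID that lies between the beta and gamma clusters at 530 kb, had ratios of 1.03 in OR1 and 1.05 in OR2. DIAPH1, an actin-organizing formin just past the gamma cluster at 726 kb, had 0.58 and 0.61. Between these and PCDH1, at 1074 kb, lay HDAC3 (0.71 and 0.80), ARAP3 (0.78 and 0.68), RELL2 and FCHSD1.

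Of 25 listed genes around the clusters, 24 were detected, and their median log2 ratio was -0.38 for OR1 and -0.41 for OR2. In both lines 1 was up-regulated and 2 were down-regulated. CD14, a co-receptor for bacterial lipopolysaccharide, had 168 for H1975, 713 for OR1 and 1100 for OR2, with ratios of 4.25 and 6.56. RELL2 had 976, 458 and 408, with ratios of 0.47 and 0.42. FCHSD1 was well above background in H1975 alone, with 18.4, 6.47 and 6.14 and ratios of at most 0.45 and at most 0.42. Most beta genes were higher than in H1975, while the listed genes, which span -238 to 1807 kb, had medians below 0. TAF7, beside the beta cluster, had 1.03 and 1.05, and a cause shared along the stretch was not tested.

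**Figure D4:**
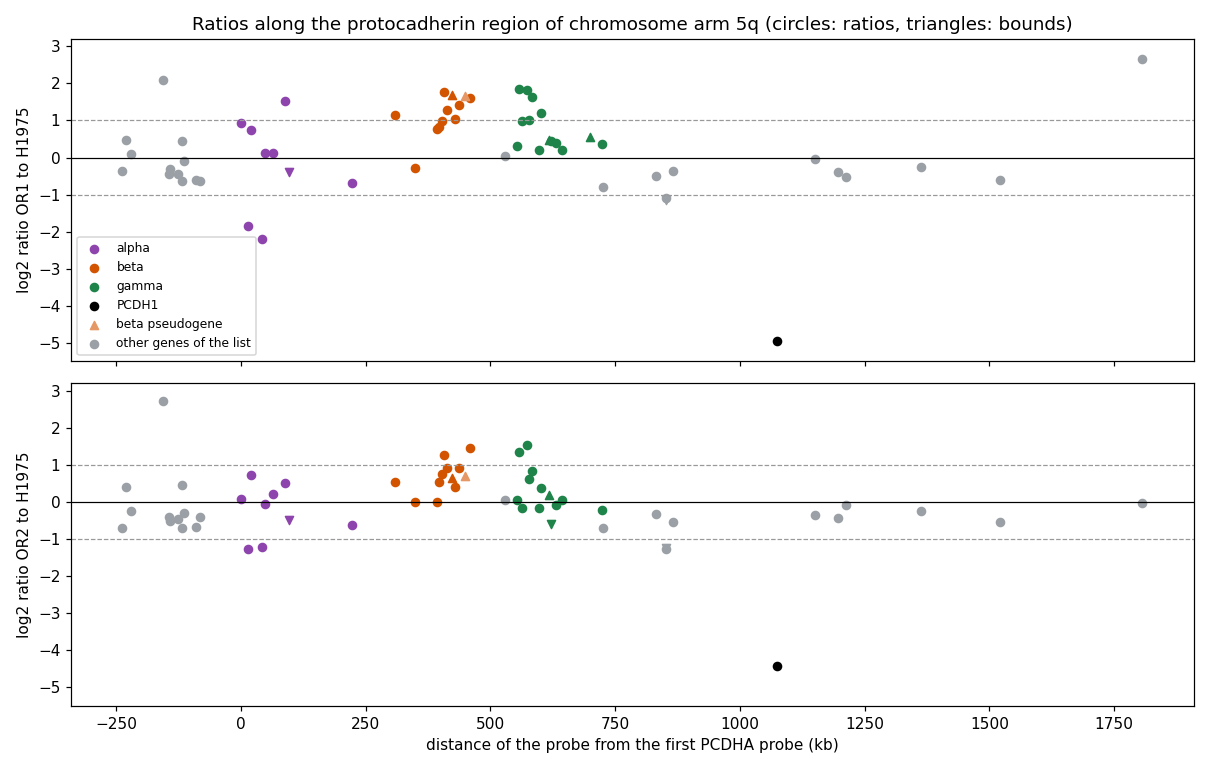
Log2 ratio to H1975 in OR1 (top) and OR2 (bottom) against the distance in kb from the first PCDHA probe, with alpha, beta and gamma genes, PCDH1 and other listed genes of the stretch in colours. Most beta genes, between 265 and 459 kb, lie above 0, most of the other genes lie below 0, and PCDH1 stands apart at 1074 kb.

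The promoters of clustered protocadherins are known for a conserved element with the letters CGCT. In a RefSeq table on GRCh38.p14, 53 members had 61 promoters, each from 250 bases before to 50 after the start. Searched on both strands over the promoters of all genes of these families in the table, CGCT was in 12 of 13 alpha, 14 of 14 beta and 25 of 25 gamma promoters, but also in 70.0% of all 35116 promoters. The longer GNCGCTG was chosen after these sequences had been seen. It was in 6 of 13 alpha, 12 of 14 beta, 22 of 25 gamma and 3 of 16 non-clustered promoters and in 25.3% of all. Each of its forms contains CGCT, so the counts overlap.

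The base at the N of GNCGCTG separated the alpha from the beta promoters that hold the motif, while the gamma promoters held all 3 forms given here. GGCGCTG was in 12 of 14 beta, 5 of 25 gamma and none of the alpha promoters, against 11.5% of all. GTCGCTG was in 6 of 13 alpha and 6 of 25 gamma and none of the beta promoters, against 3.24% of all. GCCGCTG was in 14 of 25 gamma and none of the alpha or beta promoters, against 11.1% of all. Of the other letters searched, GGNGGCAG, part of the CTCF motif, was in 1 gamma promoter and in no alpha or beta promoter, against 16.7% of all, and TATAAA was in 3 alpha, 1 beta and 2 gamma promoters, against 11.5% of all. A match is a description of the letters and not a site.

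The 30 bases around the match are shown for 4 members up-regulated in both lines and for 3 that were not, with the match in capitals. The former are PCDHB10 (chr5:141192302-141192331), PCDHB15 (chr5:141245317-141245346), PCDHGA3 (chr5:141343770-141343799) and PCDHGB2 (chr5:141359924-141359953). The latter are PCDHB5 (chr5:141135182-141135211), PCDHGA7 (chr5:141382652-141382681) and PCDHA6 (chr5:140827900-140827929), which was down-regulated in both. All are on the plus strand of GRCh38.p14, and the match began 40, 67, 48, 201, 13, 79 and 49 bases before the start in that order.
PCDHB10: ggccacacggtGGCGCTGcaggctaaagag
PCDHB15: caacgcatggtGGCGCTGcaggctaaggct
PCDHGA3: ggcctcttagtGTCGCTGttgaccactcaa
PCDHGB2: aacctctgagcGTCGCTGttggtcaaaaga
PCDHB5: ggacgcctggtGGCGCTGcaggctaagagt
PCDHGA7: ggactcacagcGCCGCTGttcaccaaccag
PCDHA6: agccgcatgatGTCGCTGtctaccatgaag

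The beta windows continue with almost the same letters whether the gene was up-regulated in both lines or, as PCDHB5, in neither. PCDHA6 and PCDHGA3 have the same form, GTCGCTG, with ratios of 0.22 and 3.62 in OR1.

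Of 18 measured chromatin regulators that act on such clusters, all were detected and 1, DNMT3B, a de novo DNA methyltransferase, was past the ratio in both lines. It had 428 for H1975, 181 for OR1 and 156 for OR2, with ratios of 0.42 and 0.36. CTCF, which binds the cluster promoters, had 294, 219 and 281, with ratios of 0.75 and 0.95, and the list as a whole had medians of -0.08 and 0.08. Of 19 detected partners and proteases of 21 listed, which include the kinases and WAVE complex subunits bound by protocadherin tails, none was past the ratio in both lines. FYN, a Src-family kinase, had 363 for H1975, 295 for OR1 and 34.9 for OR2, with ratios of 0.81 and 0.096. Among 14 other large cadherins of the FAT, DCHS, CELSR and CDHR families, 10 were detected and none passed the ratio in either line, with medians of 0.02 and -0.09.

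The lines were checked against cell type markers. Of 6 epithelial markers all were detected, and KRT8 and KRT18 kept ratios between 0.81 and 1.12, while EPCAM, CDH1, KRT7 and KRT19 were down-regulated in both lines. EPCAM, an epithelial adhesion protein, had 0.037 and 0.073, and CDH1, the epithelial cadherin, had 0.020 and 0.080. KRT7 had 0.16 and 0.17 and KRT19 0.46 and 0.49. Of 7 mesenchymal markers 5 were detected, with a list median of 0.66 in OR1 and 0.00 in OR2 on the log2 scale. ZEB1, a repressor of epithelial genes, was up-regulated in both, with ratios of 4.74 and 5.14, while the matrix protein FN1 had 0.73 and 0.20, the repressor SNAI2 had 0.62 and 0.55, and the filament protein VIM had 1.58 and 1.83. PCDH1 was thus down-regulated in the lines where CDH1 and EPCAM were, and the part of that shift in its value was not tested.

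Of 6 neuronal markers 4 were detected in each line, SYP and STMN2 were not, and SNAP25 was down-regulated in both with 0.14 and 0.48. Of 6 fibroblast markers the number detected was 2 for H1975, 3 for OR1 and 1 for OR2. PDGFRA, DCN and COL3A1 were below the call in each line and COL1A2 was down-regulated in both, with 0.16 and at most 0.061. LUM was well above background in OR1 alone, at 43.3.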

How the data were processed

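Total RNA of H1975, OR1 and OR2 was labeled with Cy3 and hybridized to 1 Agilent 60-base oligonucleotide array per line. The authors deposited the output of Agilent Feature Extraction, with spot intensities corrected for background and spatial trend on each array, and a table of normalized intensities whose method is not given in the sources used here. The version is 9.5.1.1 in the submitters' processing notes and 10.7.1.1 per the file headers, and the reason for the difference is not known. No array was left unmapped.

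From the scanner output, control probes and outlier spots were left out (45 for H1975, 61 for OR1 and 46 for OR2), and no spot was saturated. Repeated spots of a probe were combined as the mean log2 intensity, less the 75th percentile of the array, which lay at 157.5, 138.1 and 161.8. This left 58200 probes, 87 of them for the 66 members. The brightest probe over the 3 arrays stood for a gene, and 17 members had more than 1. Of 66 accessions, 63 were found in the RefSeq table (names and promoters), all with the same symbol. The ratios of 2 and 0.5 are those of the methods. A share of all genes counts those well above background on at least 1 of the arrays compared. Every member detected in any line is named, and of the other lists the genes past the ratio in both lines, with CTCF, PPP1CA, SET, FYN, TAF7, DIAPH1, HDAC3, ARAP3 and some cell type markers named after their values were seen.

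The members and the gene lists were chosen with earlier results of these data known. The motifs GTNAGT and GNCGCTG were chosen after the sequences had been seen. Alternatives were 5 other scalings, normexp, the authors' normalized intensities, other probe and background rules, ratios of 4 and 1.5 with their inverses, and limma. The call rule was first checked on simulated arrays in which 200 genes were changed. Python 3.11.15, numpy 2.4.6, pandas 2.3.3, matplotlib 3.10.9, R 4.3.3 and limma 3.58.1 were used.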

Additional observations from a re-analysis of the deposited data

How the results depend on the processing

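The members up-regulated in both lines numbered 4 to 6 under each scaling, against 5, and those down-regulated in both stayed at 3. Of all genes, 591 to 1256 were up-regulated in both over these scalings, against 1141. Down-regulated in both were 1288 to 1584 of all genes, against 1417. Counts and medians moved as follows, and where no construction of the setting shows it the cause was not tested. Spike-in scaling left 8 members up-regulated in OR1, with a clustered median of 0.282 and a non-clustered one of 0.738. Of all genes it left 771 up-regulated in OR1, in place of 2006. normexp, whose offset shrinks the ratios of dim probes, left 4 members up-regulated in OR1 and 1 in OR2 and in both. It left 1 down-regulated in OR1, in OR2 and in both. Of all genes normexp left 785, 668 and 461 up-regulated in OR1, OR2 and both, in place of 2006, 1675 and 1141. Down-regulated under it were 1126, 916 and 705 of all genes, in place of 2094, 1886 and 1417. The medians of OR1 were then 0.484 (clustered) and 0.538 (non-clustered), and the non-clustered one of OR2 was 0.168. PCDHGA3, PCDHB15, PCDHB11 and PCDHB14 were the members up-regulated in OR1 under normexp and PCDHB15 the one in OR2, and PCDH1 was the one down-regulated.

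The non-clustered median reversed to -1.187 in OR1 and turned to -1.107 in OR2 with the median over a gene's probes, and to -1.642 and -1.416 with all 3 arrays well above background. With no background filter it was 0.068 and 0, and 9 members were up-regulated in OR2 and 8 in both. Of all genes 3687 and 2057 were then up-regulated in OR2 and in both. A ratio of 4 left 1 member up-regulated in OR1, 0 in OR2 and 0 in both, and 1 down-regulated in OR2 and in both. Of all genes it left 464, 381 and 265 up-regulated in OR1, OR2 and both, and 518 and 422 down-regulated in OR2 and both. A ratio of 1.5 gave 14 members up-regulated in OR2 and in both and 5 down-regulated in OR2. Of all genes it gave 3734 and 2573 up-regulated in OR2 and both, and 4357 down-regulated in OR2. The limma fit, with 1 H1975 array, had log2 fold changes of members from -4.69 for PCDH1 to 2.975 for PCDHB12. Of 678 ratios of single members under other settings, 604 moved by less than 1 technical SD and 74 by more. The 74 came from spike-in scaling (34), normexp (32) and the median over probes (8). Median scaling, no scaling and the 75th percentile over detected probes shift a line by less than the lowest technical SD of 0.204, so they could add none. No called ratio changed sign. Uncalled ones did, such as PCDHA11 in OR1, at 0.62 by the probe used and 1.35 by the median over probes. No replicate could be left out, and no paired analysis was possible because each line has 1 array. Dim probes near the lowest intensity well above background limit PCDHGA9, PCDHGB6, PCDHGC4 and PCDHA13.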
